A study of Mus musculus with 11 samples.

Results

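Cox7b2, Efhc2, Ephx2, Bnipl, Spink3, C77370 and Gbx2 are 7 of the 24016 genes measured in mouse embryonic stem (ES) cell lines with and without DNA methyltransferases. They were selected on the difference between the TKO and DKO families of lines in how their measured level changed when a methyltransferase was put back. For that reason the levels and add-back changes of these genes are a description and carry no test. All 7 reached 1 RPKM (reads scaled to transcript length and to library depth) in at least 1 library and were among the 14229 genes tested. Ranked by the size of the family difference, the genes stood 2nd (Cox7b2), 6th (Efhc2), 8th (Ephx2), 17th (Spink3), 33rd (Gbx2), 157th (Bnipl) and 310th (C77370) of the 14229.

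PolyA RNA came from lines labelled J1 ESC of the 129S4/SvJae strain, kept in serum and LIF on a layer of irradiated mouse fibroblasts. TKO cells lack Dnmt1, Dnmt3a and Dnmt3b, and the lines TKO+Dnmt3a1 (2 libraries), TKO+Dnmt3a2 (2 libraries) and TKO+Dnmt3b1 (1 library) had an enzyme put back on that background. DKO cells lack Dnmt3a and Dnmt3b and keep Dnmt1, and DKO+Dnmt3a1, DKO+Dnmt3a2 and DKO+Dnmt3b1 had 1 library each, as did the parents TKO and DKO and the wild-type (WT) line. The labels do not say how the enzymes were expressed, whether a line is 1 clone, or whether paired libraries came from separate cultures, so clonal differences and genotype cannot be told apart.

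Dnmt1 copies methylation onto new DNA strands after replication, while Dnmt3a and Dnmt3b add methyl groups to unmethylated DNA. Methylation is placed on the cytosine of CpG dinucleotides, and a methylated CpG-rich promoter is usually silent. Dnmt3a1 is the longer isoform of Dnmt3a, Dnmt3a2 starts at an internal promoter and is shorter, and Dnmt3b1 is the full-length catalytic form of Dnmt3b. In the TKO lines an enzyme put back acts without Dnmt1 maintenance, and in the DKO lines it acts with it.

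The transcripts of the deleted enzymes were checked first. Dnmt1 lay between 6.73 and 12.4 RPKM in the 6 TKO family libraries, against 55.9 to 74.5 RPKM in the 4 DKO family libraries and 71.0 RPKM in WT. Dnmt3a was at 4.24 RPKM in TKO and 3.63 RPKM in DKO, against 22.7 RPKM in WT, while Dnmt3b was at 45.3 RPKM in TKO, above its 25.03 RPKM in WT, so its total transcript does not check that genotype. With the enzyme put back, Dnmt3a reached 11.1 to 39.4 RPKM in the TKO+Dnmt3a1 and TKO+Dnmt3a2 libraries and 11.4 to 17.6 RPKM in their DKO counterparts, and Dnmt3b reached 100.4 RPKM in TKO+Dnmt3b1 and 29.6 RPKM in DKO+Dnmt3b1. Each of these values lay above that of the parent line, but so did several for the other enzyme. Dnmt3a was at 10.2 RPKM in TKO+Dnmt3b1, close to the 11.1 RPKM of TKO+Dnmt3a2 replicate 2, and at 6.76 RPKM in DKO+Dnmt3b1. Dnmt3b was at 13.3 RPKM in DKO+Dnmt3a1 and 14.7 RPKM in DKO+Dnmt3a2, against 5.68 RPKM in DKO, so these totals do not tell the enzymes put back apart in every library. All 10 ES cell markers, Pou5f1, Sox2 and Nanog among them, were at 1 RPKM or more in every library. Depth, read from the spacing of the RPKM values, was 21.8 to 32.8 M reads per library. Feeder and macrophage transcripts varied between libraries. The summed level of 20 fibroblast markers was 859 to 3507 RPKM in the TKO add-backs, 956 RPKM in TKO, 335 to 2587 RPKM in the DKO add-backs, 954 RPKM in DKO and 663 RPKM in WT. For 17 macrophage markers it was 61.5 to 323, 59.2, 12.8 to 296, 116 and 46.4 RPKM in the same order. Both maxima were in Dnmt3b1 libraries. In DKO+Dnmt3a2, the lowest library, Emr1, Tyrobp, C1qa, C1qb, C1qc, Ptprc and Aif1 were listed at 0. The part of these cells in the results below was not tested.

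The promoters of 4 members are shown because CpG dinucleotides are the substrate of the enzymes that were removed and put back. Each window runs from 250 bases before to 50 bases after a RefSeq transcript start in build GRCm38.p6, is written 5′ to 3′ on the gene's strand, and has its CpG dinucleotides in capitals. C77370 carries the current RefSeq symbol Nexmif and Spink3 the symbol Spink1, both matched by transcript accession. The windows are chr5:71548156-71548455 (minus strand) for Cox7b2, chrX:17319892-17320191 (minus strand) for Efhc2, chrX:104201135-104201434 (minus strand) for C77370 and chr1:89931127-89931426 (minus strand) for Gbx2.
Cox7b2: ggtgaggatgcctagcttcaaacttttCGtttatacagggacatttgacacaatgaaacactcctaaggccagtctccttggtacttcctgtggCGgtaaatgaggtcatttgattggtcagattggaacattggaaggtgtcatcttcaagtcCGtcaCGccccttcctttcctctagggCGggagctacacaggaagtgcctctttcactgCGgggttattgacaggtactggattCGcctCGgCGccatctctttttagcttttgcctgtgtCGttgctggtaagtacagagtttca
Efhc2: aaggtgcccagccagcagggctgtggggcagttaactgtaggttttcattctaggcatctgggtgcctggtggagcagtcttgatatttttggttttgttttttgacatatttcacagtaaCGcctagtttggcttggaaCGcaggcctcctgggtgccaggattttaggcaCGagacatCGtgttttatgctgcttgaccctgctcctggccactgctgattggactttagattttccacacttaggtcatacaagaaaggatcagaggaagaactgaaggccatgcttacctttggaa
C77370: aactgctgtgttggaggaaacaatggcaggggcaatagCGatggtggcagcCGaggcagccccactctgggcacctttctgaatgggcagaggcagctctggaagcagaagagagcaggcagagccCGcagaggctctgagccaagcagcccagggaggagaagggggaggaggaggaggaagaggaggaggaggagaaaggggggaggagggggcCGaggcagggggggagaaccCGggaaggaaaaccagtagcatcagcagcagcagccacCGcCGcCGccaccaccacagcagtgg
Gbx2: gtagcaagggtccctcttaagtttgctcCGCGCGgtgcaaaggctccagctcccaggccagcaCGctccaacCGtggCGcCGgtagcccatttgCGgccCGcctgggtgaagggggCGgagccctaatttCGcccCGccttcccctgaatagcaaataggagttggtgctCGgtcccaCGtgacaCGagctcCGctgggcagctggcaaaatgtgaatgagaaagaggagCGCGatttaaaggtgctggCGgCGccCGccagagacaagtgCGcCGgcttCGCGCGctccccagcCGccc

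The 4 windows differed widely in CpG content. Gbx2 held 27 CpGs in 300 bases, a number that 15.5% of the 32851 windows of this length in the RefSeq table reach. Cox7b2 held 10 CpGs and C77370 held 8, which 43.5% and 48.6% of windows reach, and the median window held 7. Efhc2 held 4, a number that 68.6% of windows reach. The hexamer CACGTG, which reads the same on both strands and can be bound by MYC and MAX family proteins, was in the Gbx2 window and in 7.2% of all windows. GCGGGA, searched on both strands as a core letter string of E2F sites, was in the Cox7b2 window and in 20% of all windows. TTCNNNGAA, the STAT palindrome, was in none of the 4 windows and in 8.3% of all. CACGTG and GCGGGA each contain a CpG, and no window held more than 1 of the 3 motifs.

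Cox7b2, Efhc2, Ephx2 and Bnipl had higher add-back means in TKO and lower ones in DKO, while Spink3, C77370 and Gbx2 differed between the families the other way. Cox7b2 and Efhc2 had their highest group mean in DKO and their lowest in WT, and their levels over the 11 libraries ran together (Pearson r = 0.92, a description over libraries that share their lines). Spink3 and Gbx2 were highest in the DKO add-backs (r = 0.91 between them). These members lie on different chromosomes, 5 and X for the first pair and 18 and 1 for the second.

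**Figure D1:**
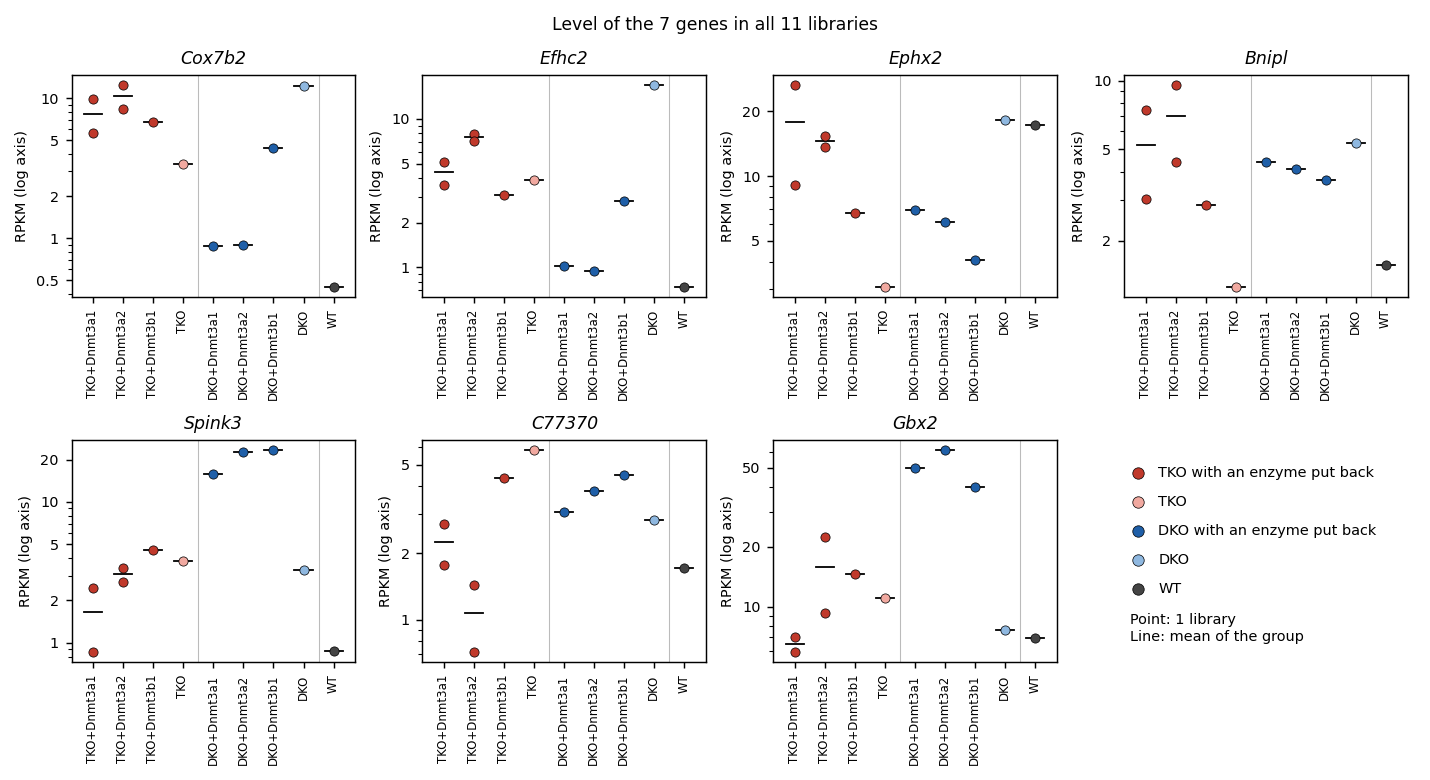
RPKM of the 7 genes on log axes in all 11 libraries, with a point per library and a line at the mean of each group. In Cox7b2 and Efhc2 the DKO library stands at 12.3 and 17.0 RPKM, above all 3 DKO add-backs, and the WT library is lowest.

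Cox7b2 encodes a subunit of cytochrome c oxidase, the last complex of the respiratory chain, in a form found mainly in testis. It was at 9.84 and 5.68 RPKM in TKO+Dnmt3a1, 8.37 and 12.6 RPKM in TKO+Dnmt3a2 and 6.83 RPKM in TKO+Dnmt3b1, against 3.39 RPKM in TKO. It was at 0.883 RPKM in DKO+Dnmt3a1, 0.898 RPKM in DKO+Dnmt3a2 and 4.42 RPKM in DKO+Dnmt3b1, against 12.3 RPKM in DKO, and at 0.451 RPKM in WT. All 5 TKO add-backs lay above TKO and all 3 DKO add-backs lay below DKO, with no overlap in either family. The TKO add-backs averaged 8.65 ± 2.69 RPKM (SD, n = 5), 2.55 times TKO, and the DKO add-backs 2.07 ± 2.04 RPKM (SD, n = 3), 0.169 times DKO. Here and below n counts libraries, and the 5 of TKO come from 3 lines, 2 of them with 2 libraries. These SDs therefore mix differences between lines with those between libraries. At these depths the DKO level corresponds to about 196 reads and the WT level to about 7.92 reads, so the low values rest on few reads.

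Efhc2 encodes an EF-hand protein of the microtubule doublets of motile cilia. Its level was 5.15 and 3.601 RPKM in TKO+Dnmt3a1, 7.97 and 7.06 RPKM in TKO+Dnmt3a2 and 3.07 RPKM in TKO+Dnmt3b1, against 3.86 RPKM in TKO. In the DKO add-backs it was 1.01 RPKM with Dnmt3a1, 0.939 RPKM with Dnmt3a2 and 2.80 RPKM with Dnmt3b1, against 17.0 RPKM in DKO, and WT stood at 0.742 RPKM. The TKO add-backs overlapped TKO, with 3 above and 2 below, whereas all 3 DKO add-backs lay below DKO. Their means were 5.37 ± 2.13 RPKM (SD, n = 5) with TKO add-back, 1.39 times TKO, and 1.59 ± 1.05 RPKM (SD, n = 3) with DKO add-back, 0.0930 times DKO. The family difference of Efhc2 therefore lay mostly on the DKO side. Against WT, the level of Efhc2 was 5.204-fold in TKO and 23.0-fold in DKO, and for Cox7b2 these ratios were 7.51 and 27.2, each from 1 library per line.

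Ephx2 encodes the soluble epoxide hydrolase, which turns fatty acid epoxides into diols. It read 26.6 and 9.06 RPKM in TKO+Dnmt3a1, 13.6 and 15.4 RPKM in TKO+Dnmt3a2 and 6.77 RPKM in TKO+Dnmt3b1, against 3.07 RPKM in TKO. It read 6.97, 6.11 and 4.09 RPKM in DKO with Dnmt3a1, Dnmt3a2 and Dnmt3b1, against 18.3 RPKM in DKO, and 17.2 RPKM in WT. Every TKO add-back lay above TKO, every DKO add-back lay below DKO, and DKO was close to WT (1.06 times). Unlike Cox7b2 and Efhc2, Ephx2 had its lowest level in TKO, at 0.178 times WT. The TKO+Dnmt3a1 libraries differed 2.94-fold from each other, the widest replicate gap among the 7 genes in that line.

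Bnipl encodes a relative of the BCL2-interacting protein BNIP2. It was at 7.45 and 3.04 RPKM in TKO+Dnmt3a1, 4.39 and 9.60 RPKM in TKO+Dnmt3a2 and 2.86 RPKM in TKO+Dnmt3b1, against 1.26 RPKM in TKO. The DKO add-backs stood at 4.42, 4.10 and 3.68 RPKM with Dnmt3a1, Dnmt3a2 and Dnmt3b1, against 5.36 RPKM in DKO, and WT was at 1.57 RPKM. All add-backs again lay on opposite sides of their parents, but the DKO add-back mean was 0.759 times DKO while the TKO add-back mean was 4.33 times TKO. Replicates differed 2.45-fold in TKO+Dnmt3a1 and 2.19-fold in TKO+Dnmt3a2, more than the step between DKO and its add-backs.

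Spink3 encodes a secreted Kazal-type inhibitor of trypsin, best known from the pancreas. With Dnmt3a1 it was at 2.44 and 0.864 RPKM in TKO, with Dnmt3a2 at 2.71 and 3.42 RPKM and with Dnmt3b1 at 4.58 RPKM, against 3.83 RPKM in the TKO parent. DKO+Dnmt3a1, DKO+Dnmt3a2 and DKO+Dnmt3b1 stood at 15.7, 22.5 and 23.4 RPKM, against 3.30 RPKM in DKO, and WT stood at 0.875 RPKM. The TKO add-backs overlapped their parent and the DKO add-backs did not. DKO add-backs averaged 20.5 ± 4.20 RPKM (SD, n = 3), 6.22 times DKO, and TKO add-backs 2.80 ± 1.36 RPKM (SD, n = 5), 0.731 times TKO.

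C77370 (Nexmif) is an X-linked gene known in humans for its link to intellectual disability. TKO+Dnmt3a1 stood at 2.71 and 1.77 RPKM, TKO+Dnmt3a2 at 1.44 and 0.718 RPKM and TKO+Dnmt3b1 at 4.37 RPKM, against 5.83 RPKM in TKO, the highest library. DKO+Dnmt3a1, DKO+Dnmt3a2 and DKO+Dnmt3b1 were at 3.06, 3.81 and 4.51 RPKM, against 2.82 RPKM in DKO, and WT was at 1.72 RPKM. All 5 TKO add-backs were below TKO and all 3 DKO add-backs were above DKO, with DKO+Dnmt3a1 the nearest to it. TKO add-backs averaged 2.20 ± 1.41 RPKM (SD, n = 5), 0.377 times TKO, and DKO add-backs 3.80 ± 0.724 RPKM (SD, n = 3), 1.34 times DKO.

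Gbx2 encodes a homeobox transcription factor of the mid-hindbrain boundary that also acts downstream of LIF and STAT3 in mouse ES cells. It was at 7.005 and 5.93 RPKM in TKO+Dnmt3a1, 22.3 and 9.24 RPKM in TKO+Dnmt3a2 and 14.6 RPKM in TKO+Dnmt3b1, against 11.004 RPKM in TKO. It was at 49.9 RPKM in DKO+Dnmt3a1, 61.3 RPKM in DKO+Dnmt3a2 and 39.7 RPKM in DKO+Dnmt3b1, against 7.61 RPKM in DKO, and at 6.94 RPKM in WT. The TKO add-backs spread around TKO, while each DKO add-back was above every library without an enzyme put back and above every TKO add-back. DKO add-backs averaged 50.3 ± 10.8 RPKM (SD, n = 3), 6.61 times DKO, and TKO add-backs 11.8 ± 6.74 RPKM (SD, n = 5), 1.07 times TKO. TKO and DKO themselves were 1.59 and 1.10 times WT.

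The order of the 9 groups was compared with the replicate spread, a pooled SD of log2(RPKM + 0.5) from the lines with 2 libraries. For Cox7b2 this SD was 0.46 and 3 of the 8 steps between neighbouring groups exceeded it, the largest (1.48) lying between TKO and DKO+Dnmt3a2. For Efhc2 the SD was 0.245 and 4 steps exceeded it, with DKO 1.13 above TKO+Dnmt3a2, the next group. Spink3 had an SD of 0.57 and a step of 1.67 between DKO+Dnmt3a1 and TKO+Dnmt3b1, and Gbx2 an SD of 0.62 and a step of 1.41 between DKO+Dnmt3b1 and TKO+Dnmt3b1. Ephx2 and C77370 each had 1 step above their SDs of 0.76 and 0.42. In Bnipl none of the 8 steps reached the SD of 0.78, so that no neighbouring groups in its order differed beyond the replicate spread. These steps compare levels that the choice of the genes used. The largest steps of Cox7b2, Efhc2, Ephx2, Spink3 and Gbx2 lie between libraries of different families. The steps are therefore a description and no test.

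Compared with the parent line, the 3 enzymes gave changes of the same sign in DKO for every member. All 3 changes of a member subtract the same DKO library, and the genes were chosen on values that include them. How many of all genes have equal signs was not counted, so nothing is read from this for the members. On the log2(RPKM + 0.5) scale the change of Cox7b2 was −3.21 with Dnmt3a1, −3.19 with Dnmt3a2 and −1.37 with Dnmt3b1. Efhc2 changes were −3.53, −3.61 and −2.41 with the same enzymes, and those of Gbx2 were 2.64, 2.93 and 2.31. For Bnipl they were −0.25, −0.35 and −0.49, each smaller than its replicate SD of 0.78. For C77370 they were 0.1, 0.37 and 0.59, against an SD of 0.42. In TKO the changes of Cox7b2 were 1.04, 1.47 and 0.91 and those of Ephx2 were 2.17, 2.07 and 1.03. The TKO changes of Gbx2 were −0.73, 0.37 and 0.40 and those of Spink3 were −1.11, −0.29 and 0.23, so their signs differed between enzymes.

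**Figure D2:**
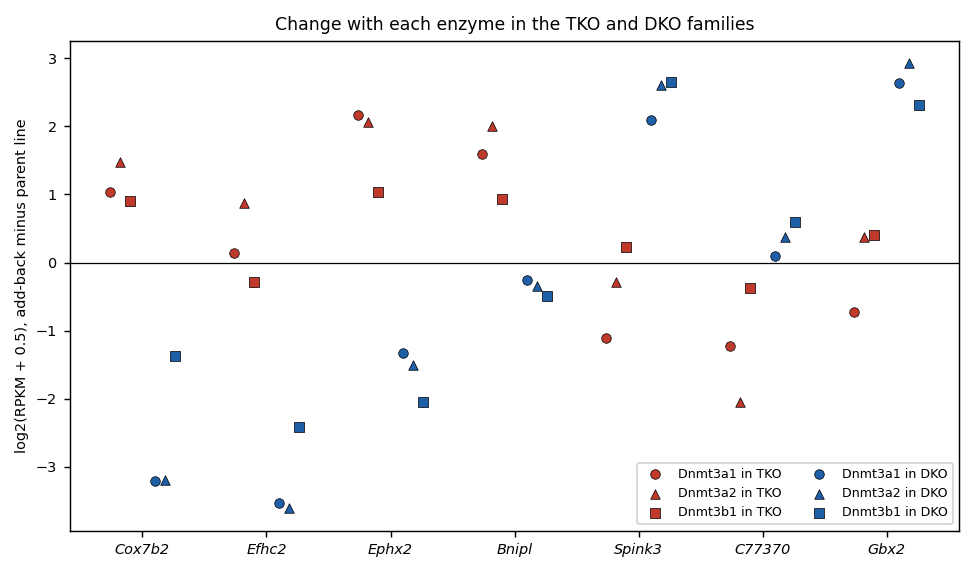
Log2(RPKM + 0.5) of each add-back line minus its parent line for the 7 genes, in red for the TKO family and in blue for the DKO family, with the symbol giving the enzyme (mean of 2 libraries for Dnmt3a1 and Dnmt3a2 in TKO). For every gene the 3 blue symbols lie on the same side of 0, while red symbols of Efhc2, Spink3 and Gbx2 lie on both sides. The 3 blue symbols of a gene are all measured from the same DKO library.

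The family difference, that is the change with add-back in TKO minus that in DKO, was fitted in 1 linear model over the 10 libraries other than WT. It came to 3.86 ± 0.88 (SE) for Cox7b2, 3.55 ± 0.80 for Efhc2, 3.41 ± 0.67 for Ephx2 and 1.91 ± 0.74 for Bnipl. For Spink3, Gbx2 and C77370 it was −2.88 ± 0.57, −2.68 ± 0.70 and −1.63 ± 0.64. These values define the choice of the genes and support nothing further. Across all genes limma called 0 of the 14229 at a Benjamini-Hochberg adjusted p under 0.05 (0%), members included. At an unadjusted p under 0.05 stood 2079 genes (14.6%), 7.91% of all genes with a positive and 6.7% with a negative difference. The opposite arrangement of 3 of the 7, Cox7b2, Ephx2 and Bnipl, with all TKO add-backs above TKO and all DKO add-backs below DKO, was found in 3.16% of the genes tested. The reverse one of C77370 was found in 3.8%.

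For the same family difference 0 of 20 fibroblast and 0 of 16 macrophage markers tested were called. In value all 20 fibroblast markers lay above 0 (median 1.10, against 0.0221 over all genes), and so did 15 of the 16 macrophage markers (median 1.40). The unadjusted p was under 0.05 for 4 fibroblast and 7 macrophage markers, against 14.6% of all genes. Their part in the members' values was not tested. Without both Dnmt3b1 libraries, which held the most of these transcripts, the difference was 4.45 for Cox7b2, 4.08 for Efhc2, 3.54 for Ephx2, 2.09 for Bnipl, −3.05 for Spink3, −1.87 for C77370 and −2.96 for Gbx2. In bulk RNA fewer cells of a type and less RNA per cell cannot be told apart.

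Differences among the enzymes put back were not used to choose the genes, and they were tested in the same model. Dnmt3b1 was set against the mean of the Dnmt3a isoforms within each family. Of the 7 genes 0 passed at an adjusted p under 0.05, against 3332 genes or 23.4% of all genes (14.5% higher and 8.91% lower with Dnmt3b1). At an unadjusted p under 0.05 there were 2 of the 7, C77370 higher and Ephx2 lower in value, against 39.4% of all genes (21.8% higher and 17.7% lower). Of the 3332 calls 2064 were higher, and with quantile normalization 1819 of 3939 were. All 20 fibroblast markers tested and 15 of the 16 macrophage markers tested were called higher with Dnmt3b1, and their part in the members' values was not tested. C77370 was 0.85 ± 0.33 (SE) higher in value with Dnmt3b1 (limma, Benjamini-Hochberg adjusted p = 0.102), with differences of 1.26 in TKO and 0.35 in DKO. Ephx2 differed by −0.88 ± 0.35 (limma adjusted p = 0.104), with −1.09 in TKO and −0.61 in DKO. Cox7b2 differed by −0.34 in TKO and 1.82 in DKO, and Efhc2 by −0.80 and 1.16, so that the pooled values of 0.64 ± 0.46 and 0.09 ± 0.41 average opposite signs. This difference between families was not tested, and it enters the residual spread behind these SEs. Leaving out DKO+Dnmt3a2 brought C77370 past the threshold (1.13, limma adjusted p = 0.0432, against 0.0432 to 0.748 over its 17 alternatives), and leaving out TKO+Dnmt3a1 replicate 2 did so for Ephx2 (−1.04, limma adjusted p = 0.0328, against 0.0328 to 0.604). The count over all genes, 3332, rested on single libraries, with 141 without TKO+Dnmt3b1, 243 without DKO+Dnmt3b1, 1655 without DKO+Dnmt3a2 and 2005 without TKO+Dnmt3a1 replicate 1.

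Dnmt3a1 was set against Dnmt3a2 in the same way. Limma called 0 genes (0%), and 298 (2.09%) had an unadjusted p under 0.05, 0.991% higher and 1.1% lower with Dnmt3a1. Of the 7 members Spink3 alone had an unadjusted p under 0.05. Spink3 differed by −0.72 ± 0.29 and Gbx2 by −0.83 ± 0.36 (SE), each with a limma adjusted p of 1. Spink3 was at −0.35 without TKO+Dnmt3a1 replicate 2, and Gbx2 at −0.47 without TKO+Dnmt3a2 replicate 1. For both, the value was below 0 in each family, at −0.82 in TKO and −0.50 in DKO for Spink3 and at −1.10 and −0.29 for Gbx2. The other 5 members differed by −0.46 (Efhc2) to 0.45 (C77370).

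**Figure D3:**
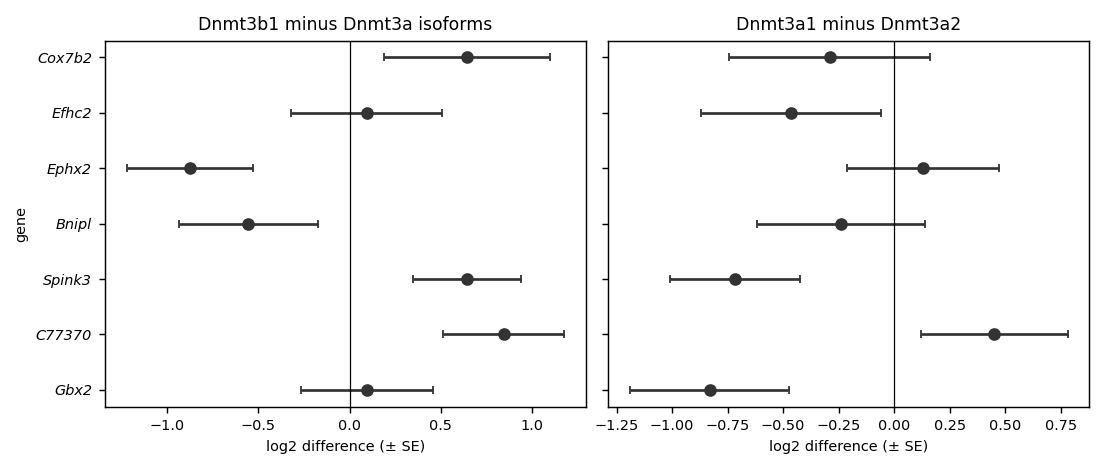
Fitted log2 differences of the 7 genes with SE bars, for Dnmt3b1 minus the Dnmt3a isoforms (left) and Dnmt3a1 minus Dnmt3a2 (right), over 10 libraries. Values run from −0.88 to 0.85 on the left and from −0.83 to 0.45 on the right, and no gene passed the adjusted threshold in either.

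Relatives of some members were looked at next, for the same family difference. Cox7b, the broadly expressed relative of Cox7b2, lay between 86.7 and 147 RPKM in the TKO add-backs, 91.0 RPKM in TKO, 103 to 142 RPKM in the DKO add-backs, 130 RPKM in DKO and 153 RPKM in WT. Its family difference was 0.29 ± 0.25 (limma adjusted p = 0.619). Ephx1, the microsomal epoxide hydrolase, was at 12.3 to 17.9 RPKM in the TKO add-backs, against 10.97 RPKM in TKO, and at 4.15 to 10.6 RPKM in the DKO add-backs, against 17.1 RPKM in DKO. Its difference of 1.85 ± 0.46 (limma adjusted p = 0.221) had the sign of that of Ephx2. Gbx1 (0.76 ± 0.45), Bnip2 (−0.32 ± 0.25) and Ephx4 (−0.71 ± 0.40) had limma adjusted p values of 0.472, 0.590 and 0.447. Ephx3 stayed under 0.5 RPKM and was not tested.

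No gene of the lists passed over all genes, so the lists are given by their values. Of 15 cytochrome c oxidase subunits tested, 14 had a family difference above 0 (median 0.53, against 0.0221 over all genes), and in 3 of the 15 the unadjusted p was under 0.05, against 14.6% of all genes. Cox7a1, the muscle form of its subunit, differed by 1.48 (limma adjusted p = 0.338) and Cox6b2, a testis form, by 1.499 (limma adjusted p = 0.455). Of 24 germline genes listed for methylated promoters, 15 were above 0 (median 0.42). Their promoter methylation was not examined here. In 7 of the 24, all higher, the unadjusted p was under 0.05, against 14.6% of all genes in either direction and 7.91% higher. Dpep3, a membrane dipeptidase of testis, was at 1.005 to 5.30 RPKM in the TKO add-backs, against 2.91 RPKM in TKO, and at 0.372 to 0.704 RPKM in the DKO add-backs, against 7.40 RPKM in DKO (difference 2.74 ± 0.91, limma adjusted p = 0.268). Tuba3a, a testis tubulin, differed by 2.61 ± 0.53 (limma adjusted p = 0.195). Tuba3b is a close copy of it, so the value is uncertain where reads could be split between them.

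Of the 20 genes of the LIF-STAT3 pathway and naive pluripotency, 12 were above 0 and 8 below (median 0.21). Prdm14 and Nr0b1, naive pluripotency regulators, differed by 1.14 and −1.08, so values of both signs were present beside that of Gbx2. Of 12 axoneme and ciliary genes tested 7 were above 0 (median 0.16), with Ccdc40 at −1.17 and Rsph1 at 1.08. The 15 epoxide and eicosanoid genes had a median of 0.46, against 0.0221 over all genes, and 4 of the 15 had an unadjusted p under 0.05, against 14.6% of all genes. The 17 BNIP and BCL2 genes had a median of 0.09. Among 10 trypsin-like proteases and Kazal inhibitors (median 0.78), Klk1, a tissue kallikrein, was at 1.10 to 3.69 RPKM in the TKO add-backs, against 2.32 RPKM in TKO. Klk1 was at 0.755 to 1.11 RPKM in the DKO add-backs, against 10.8 RPKM in DKO (difference 2.70 ± 0.49, limma adjusted p = 0.195).

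Neighbouring genes were the 3 next table genes on each side in the order of RefSeq starts. Of 42 neighbours 23 reached 1 RPKM and were tested, 0 were called (0% of all genes), and in 5 of the 23 the unadjusted p was under 0.05, against 14.6% of all genes. Around Cox7b2 the GABA receptor genes Gabrg1, Gabra2, Gabra4 and Gabrb1 stayed below 1 RPKM in every library, and Gnpda2 and Commd8 had differences of 0.02 and −0.47. Around Efhc2, Maoa, Fundc1 and Kdm6a had values of −0.49, −0.27 and −0.27. Around Ephx2, Gulo, which makes the last step of vitamin C synthesis, had a difference of 2.06 (limma adjusted p = 0.195) and Ptk2b, a tyrosine kinase, one of 1.29 (limma adjusted p = 0.224). Next to Spink3, Jakmip2 had −1.06. The chemokine receptor gene Ackr3, beyond Asb18 and Iqca on its side of Gbx2, had 1.09, opposite in sign to Gbx2. The median family difference of whole chromosomes was 0.09 for 5, −0.03 for X, 0.09 for 14, −0.14 for 3, 0.06 for 18 and 0.12 for 1. Among the other autosomes it ran from −0.36 for 6 to 0.19 for 7, with −0.28 for 16 and −0.27 for 8. For 6, 16 and 8 the median TKO changes were −0.41, −0.31 and −0.35, and the median DKO changes were −0.0031, −0.017 and −0.057. The cause of these shifts was not tested.

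**Figure D4:**
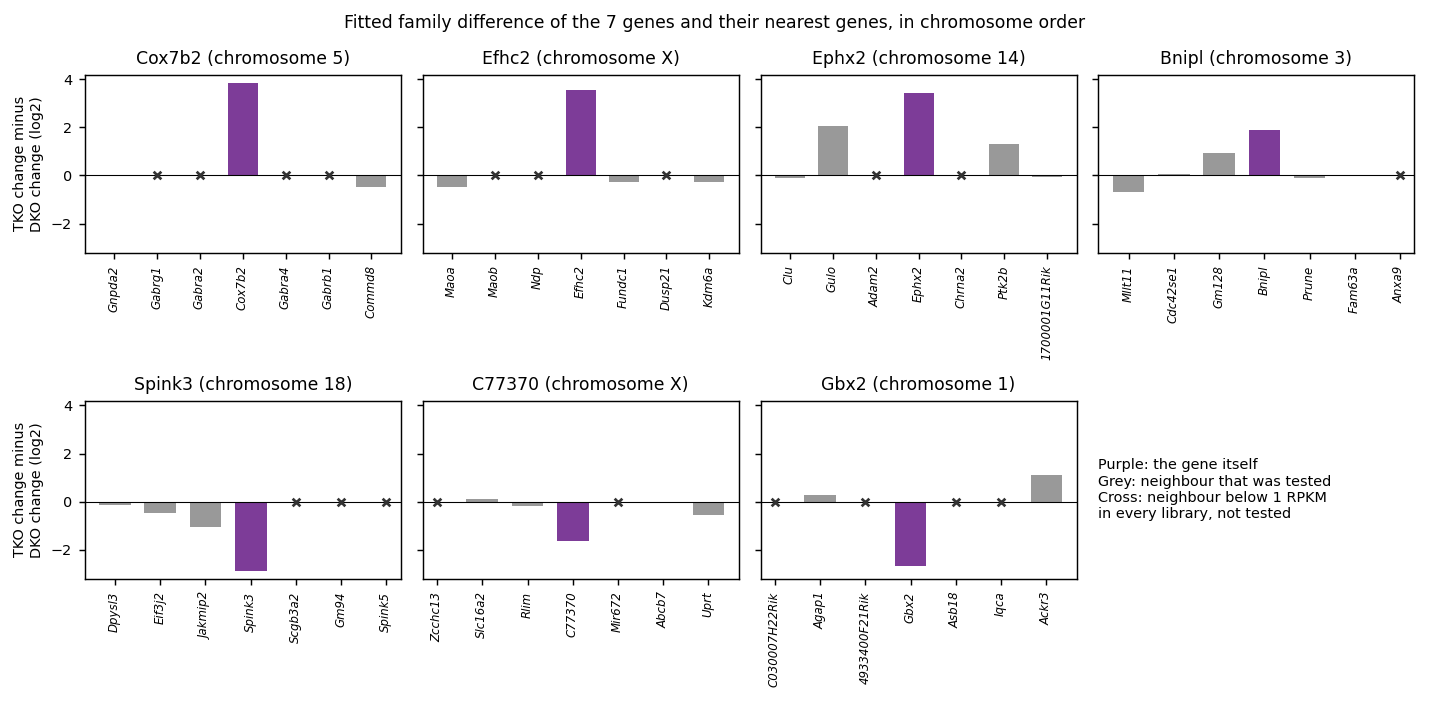
Fitted family difference (TKO change minus DKO change, log2) of each of the 7 genes in purple and of its 3 nearest genes on each side in grey, in chromosome order, with a cross for genes below 1 RPKM in every library. The bars of tested neighbours run from −1.06 to 2.06, and Gulo and Ptk2b around Ephx2 are the tallest positive ones.

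For each gene the 3 genes with the most similar pattern over the 11 libraries were found by Pearson r of log2(RPKM + 0.5). For Cox7b2 these were Rpl39l (r = 0.93), Mir6953 (0.92) and Hormad2 (0.91), the last a meiotic gene at 1.58 to 9.47 RPKM. For Efhc2 they were Mir6953 (0.95), Mvk (0.90) and the glutathione peroxidase gene Gpx2 (0.90), which spanned 1.14 to 24.8 RPKM. Ephx2 was most like Ankrd23 (0.97), the ribosomal protein gene Rpl37a (0.95) and Adamts14 (0.95), and Bnipl was most like Gtsf1l (0.92), Snord19 (0.89) and 1700019D03Rik (0.88). Spink3 was closest to Atad3a (0.95), Clca6 (0.95) and Casd1 (0.94), and C77370 to Naa15 (0.89), Acsl4 (0.87) and Rock1 (0.87). Gbx2 was closest to the homeobox gene Nkx2-9 (0.98), at 0.526 to 3.54 RPKM, to Wt1 (0.97), at 0.729 to 9.64 RPKM, and to Krr1 (0.97). Mir6953 and Snord19 are short RNAs whose reads can come from a host transcript. Pearson r does not weigh the size of changes, and some of these genes varied little. Rpl37a lay at 372 to 571 RPKM, Atad3a at 46.8 to 58.1 RPKM and Rock1 at 12.1 to 14.6 RPKM. The family difference of Atad3a was −0.23. The libraries behind each r share lines and families, and the 3 were the highest of all genes tested.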

How the data were processed

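The kit was TruSeq RNA version 2, per the labels' protocols, which does not mark strand, so reads of overlapping genes cannot be separated. The submitters' processing notes name bcl2fastq 1.8.4, STAR 2.4.0 and the build mm9. The authors deposited RPKM for 24016 genes, and the counting tool and gene lengths they used are not given in the sources used here. The table held 0 other per-sample columns.

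RPKM is no count, so log2(RPKM + 0.5), which understates changes of low genes, was fitted with limma 3.58.1 (lmFit, eBayes with trend) in R 4.3.3. Tested were 14229 genes that reached 1 RPKM in any library. The 10 libraries other than WT entered, with terms for family, add-back, their interaction, Dnmt3b1 against Dnmt3a and Dnmt3a1 against Dnmt3a2 (4 residual and 3.69 prior degrees of freedom). P-values were Benjamini-Hochberg adjusted over all genes tested at a threshold of 0.05. Lone libraries were assumed to vary like the others. The residual spread mixes that between paired libraries with differences between the families in the effect of each enzyme, which have no term in the model. With 9 group means, where only paired libraries give the spread, 2 residual degrees of freedom remain. P-values and SEs measure this mixed spread, and the part between paired libraries may be technical. The residual spread is shared with the contrast that chose the members. The script was tested on simulated data.

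Depth was the lowest total at which RPKM values of transcripts up to 500 nt (GENCODE lengths) gave whole reads up to 5 within 0.05, as 84% to 88.6% of such values did. Reads per gene are estimates from it. RefSeq (GRCm38.p6) gave names, order and promoters. It matched 23876 of the table's genes, all 7 members included, and promoter windows matched 4 members.

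The members and lists were chosen with earlier results of these data known. Named were the members, relatives of some of them (another is not reported here), their neighbours, the 3 most similar genes, and the largest differences in each list. Alternatives were other pseudocounts, no filter, other scalings, 9 group means, a replicate block, and libraries left out.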

Additional observations from a re-analysis of the deposited data

Results flagged for a closer look

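In 4 of the 7 genes every add-back library of one family lay on one side of its parent and every add-back library of the other family on the opposite side. These were Cox7b2 (fitted difference of the log2 changes 3.86), Ephx2 (3.41) and Bnipl (1.91), with TKO add-backs above TKO and DKO add-backs below DKO, and C77370 (−1.63), with the reverse. Over all 14229 genes tested, the first arrangement was found in 3.16% and the reverse in 3.8%. The genes were chosen for the fitted difference, so it was not tested for them on its own. The limma model over all genes called 0 of the 14229 for it (2079 at an unadjusted p under 0.05), and nothing is read from that for the members.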

How the results depend on the processing

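The family difference kept its sign for all 7 genes under all 17 alternatives, from 3.41 to 4.45 for Cox7b2, 3.01 to 4.08 for Efhc2, 3.18 to 3.63 for Ephx2, 1.66 to 2.18 for Bnipl, −3.21 to −2.66 for Spink3, −1.87 to −1.18 for C77370 and −3.36 to −2.28 for Gbx2. The genes were chosen on this value and all these fits share the TKO and DKO libraries, so the kept sign supports nothing further. The family difference could not be fitted without TKO or without DKO. Over all genes 0 were called in each fit of it (1350 to 2461 genes at an unadjusted p under 0.05), except that 39 were called without the low-value filter. The reason for these 39 calls was not tested. The call count of Dnmt3b1 minus Dnmt3a was 1898 with 9 group means, where the residual degrees of freedom fall, and 141 to 4334 when 1 library was left out. That of Dnmt3a1 minus Dnmt3a2 was 0 to 1 when 1 library was left out, and 1 without both Dnmt3b1 libraries and DKO+Dnmt3a2, a choice made after the data were seen.

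Some member values that had not passed the threshold changed sign. For Dnmt3b1 minus Dnmt3a, Efhc2 was −0.15 with quantile normalization, and leaving out 1 library gave −0.80 to 1.16 for Efhc2, −0.34 to 1.82 for Cox7b2 and −0.47 to 0.57 for Gbx2. The ends of these ranges are the fits without DKO+Dnmt3b1 or TKO+Dnmt3b1, which leave the value of the other family. The cause of the other sign changes was not tested. For Dnmt3a1 minus Dnmt3a2 leaving out 1 library gave −0.71 to 0.0081 for Cox7b2, −0.30 to 0.53 for Ephx2 and −0.55 to 0.13 for Bnipl. The replicate number in the titles is shared by TKO+Dnmt3a1 and TKO+Dnmt3a2 only. Deviations of same-numbered libraries correlated at r = 0.086 across genes, and the number was not taken as a pairing. This correlation cannot tell whether same-numbered libraries shared a culture or a run, and the labels do not say. With a replicate block 0 genes were called in Dnmt3a1 minus Dnmt3a2.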
